A study of Drosophila melanogaster with 9 samples.

Results

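The X chromosome of Drosophila melanogaster females carried 6340 of the 39296 peaks listed for KDM5 and H3K4me3 in 6 chromatin immunoprecipitation (ChIP-seq) libraries, which is 16.1% of them. Every peak on X was taken, with no selection on its strength, and set against the 28738 peaks on the pooled large autosome arms 2L, 2R, 3L and 3R. The X peaks numbered 1257 and 880 in the paraquat anti-HA libraries 1 and 2, and 967 and 890 in the control anti-HA libraries 1 and 2. They numbered 1459 in the wildtype KDM5 library and 887 in the wildtype H3K4me3 library. X peaks were 12.2% of the whole H3K4me3 list and 16.3% to 18.1% of each KDM5 list. A site listed in several libraries counts once for each. All samples were whole adult females aged 1 to 3 days. The anti-HA libraries came from flies of the genotype k6801/k6801;gHA-KDM5, in which a genomic rescue transgene supplies HA-tagged KDM5; the paraquat flies were fed 20 mM paraquat in 5% sucrose for 6 h and the control flies 5% sucrose alone for the same time. Both fed groups share the k6801 alleles and the transgene, so neither is a wildtype control of the other. The wildtype libraries came from w1118 flies, 1 library with an antibody to KDM5 and 1 with an antibody to H3K4me3, and no feeding is recorded for them. The 3 input samples were not analysed here. A whole fly mixes many cell types, so a peak seen in a few tissues and a weak peak seen in all of them cannot be told apart.

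KDM5, known in flies as Lid, is an enzyme that removes methyl groups from lysine 4 of histone H3. Its substrate, the trimethylated form H3K4me3, marks the promoters of active genes, and KDM5 is itself found largely at promoters. In male flies the single X is transcribed at a raised rate through the MSL dosage compensation complex. Female flies carry a pair of X chromosomes and do not assemble that complex, so here the X is compared with the autosomes in animals where all of these chromosomes are present in equal copy number.

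KDM5 and H3K4me3 peaks were laid over the female X at close to the density of an autosome arm. X made up 18.8% of the span of the 5 large arms, running from the first peak at position 3450 to the last at 22416084 (build dm3, 22.4 Mb). In the paraquat libraries 18.2% (95% Wilson interval 17.3 to 19.1) and 18.4% (17.3 to 19.5) of arm peaks lay on X, against 17.6% (16.7 to 18.7) and 18.3% (17.3 to 19.4) in the control libraries. The share was 17.3% (16.5 to 18.1) in the wildtype KDM5 list and 19.2% (18.1 to 20.4) in the H3K4me3 list. Of all 7287 H3K4me3 peaks, 887 lay on X and 3725 on the autosome arms, and the arm share leaves out the rest. The intervals of both paraquat libraries, of control library 2 and of H3K4me3 hold the share of span, and those of control library 1 and wildtype KDM5 lie below it.

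Per Mb, the paraquat libraries had 56.1 and 39.3 peaks on X, against 58.6 and 40.4 on the autosome arms. The control libraries had 43.1 and 39.7 peaks per Mb on X, against 46.7 and 41.1 on the autosome arms. In each of these 4 libraries X lay above 2L and 3L and below 2R and 3R. The ratio of X to autosome density was 0.955 ± 0.022 (SD, n = 4 libraries, pooling paraquat and control) and was below 1 in 4 of 4. An exact two-sided sign-flip permutation test over the 4 libraries gave p = 0.13, the smallest that 4 libraries allow, and p = 0.175 after Benjamini-Hochberg adjustment over the 7 measures tested in this way. Such a test cannot pass 0.05 here, so the 4 autosome arms, taken one by one, were used as the second yardstick.

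In the wildtype KDM5 list X was the sparsest of the 5 arms. It held 65.1 peaks per Mb (exact Poisson 95% interval 61.8 to 68.5), against 72.3 on the pooled autosome arms and 66.5 to 82.1 on the single ones. The lowest autosome arm lay within the interval for X. In the H3K4me3 list X held 39.6 peaks per Mb (37.0 to 42.3), against 38.6 on the pooled autosome arms, and it lay inside the range of the single arms, 35.8 to 43.2.

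**Figure D1:**
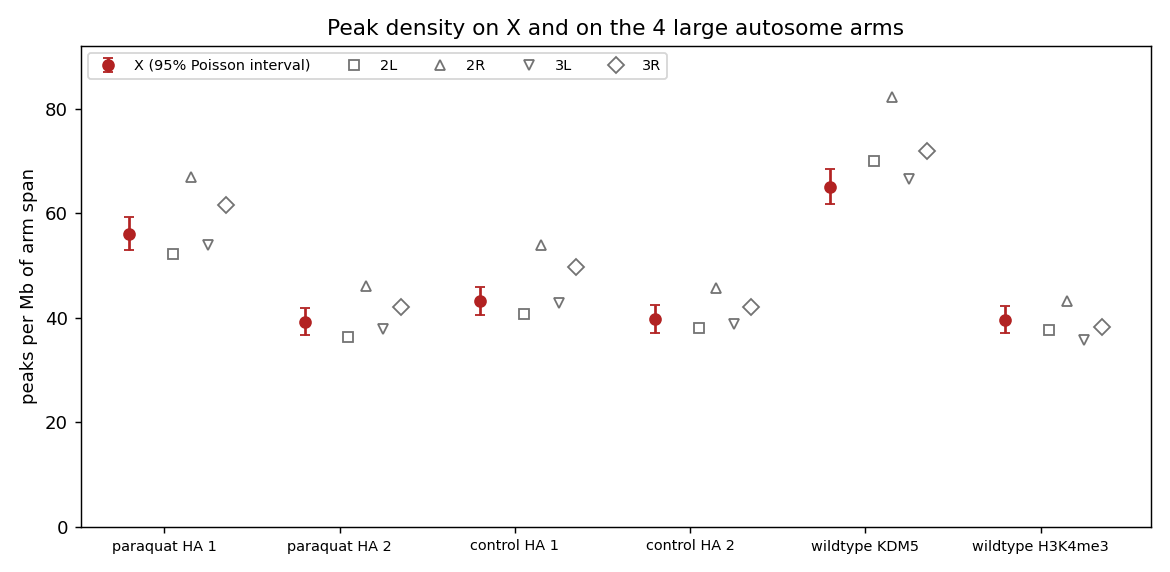
Peaks per Mb (vertical axis) in each of the 6 lists, with X as a filled circle (bar, exact Poisson 95% interval) and the 4 autosome arms as open symbols beside it. X lies inside the range of the autosome arms in the 4 anti-HA lists and in the H3K4me3 list, and below all 4 arms, at 65.1 peaks per Mb, in the wildtype KDM5 list.

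X held more H3K4me3 peaks for each wildtype KDM5 peak than any autosome arm, 0.608 on X against 0.534 on the pooled autosome arms and 0.526 to 0.538 on the single ones. This ratio was formed after the densities were seen, and it rests on 1 library for each antibody. X stayed above all 4 arms when both lists were limited to q-values of 0.001 or lower (X over autosomes 1.11, against 1.14 for all peaks). With the 2 lists made equally long, the ratio was 1.10 on X, against 0.934 to 1.04 on the autosome arms. Against each of the 4 anti-HA lists X was above the pooled autosome arms and above 2R, 3L and 3R, but not always above 2L. The pooled autosome values were 0.659 and 0.955 in the paraquat libraries and 0.826 and 0.939 in the control libraries. H3K4me3 peaks per anti-HA peak were 0.706 and 1.01 on X in the paraquat libraries, against 0.721 and 1.04 on 2L. In the control libraries they were 0.917 and 0.997 on X, against 0.926 and 0.989 on 2L. X was thus above 2L, the highest autosome arm, in 1 of the 4 anti-HA libraries.

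In the anti-HA lists the median KDM5 peak on X and on the autosomes differed by a few fragments at most. The deposited pileup, the number of ChIP fragments stacked at a peak's summit, had a median of 51 and 47 on X in the paraquat libraries, against 50 and 46 on the autosome arms. The control libraries had medians of 51 and 44 on X, against 49 and 43 on the autosome arms. The wildtype KDM5 list, whose pileups are not on the same scale as the others, had medians of 218.6 on X and 203.4 on the autosome arms. In the H3K4me3 list both medians were 40. X was above the autosomes in all 5 KDM5 lists, by 1 or 2 fragments in the anti-HA libraries.

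Ranked within each list, where 100 is the highest pileup on the 5 arms, X peaks had a median percentile of 50.7 and 53.6 in the paraquat libraries, against 49.0 and 50.8 on the autosome arms. The control libraries gave 55.2 and 52.1 on X, against 49.9 and 49.1 on the autosome arms. The difference was 3.22 ± 1.53 percentile points (SD, n = 4; 4 of 4 positive; exact sign-flip permutation p = 0.13, adjusted p = 0.175). X exceeded every autosome arm in paraquat library 2 and control library 1, and had the same value as the highest arms in the other pair. A randomly drawn X peak had the higher pileup of an X and an autosome peak in 50.5% and 51.1% of pairs in the paraquat libraries, and in 52.4% and 50.9% in the control libraries. The wildtype KDM5 list gave 51.0% and the H3K4me3 list 49.3%. Fold enrichment over local background, the authors' own value for each peak, had medians of 3.33 and 3.13 on X in the paraquat libraries, against 3.26 and 3.06 on the autosome arms. In control library 1 it was 3.18 on X, against 3.00 on the autosome arms, and in control library 2 it was 3.12 on both.

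The X share was compared between strong and weak peaks. When the arm peaks of each list were cut into 5 equal classes of pileup, 19.1% and 18.1% of the strongest class lay on X in the paraquat libraries, against 19.3% and 18.1% of the weakest class. Control libraries had 20.0% and 18.8% of the strongest class on X, against 17.4% in the weakest class of each. The difference between strongest and weakest class was 0.933 ± 1.32 percentage points (SD, n = 4; 3 of 4 positive; exact sign-flip permutation p = 0.375, adjusted p = 0.438). Without control library 1 it was 0.375 points. Ranked by fold in place of pileup it was 2.22 points and by -log10 p 1.68 points, both positive in 4 of 4 libraries (exact p = 0.13), and with lists of equal length it was 2.35 points. It was 1.32 points in the wildtype KDM5 list (3.08 points by fold) and -0.55 points in the H3K4me3 list (-3.19 points by fold). Of the 30 classes in all lists, 3 had an interval that left out the X share of the whole list. These were the fourth class of paraquat library 2, with 21.2% (18.7 to 23.9), and the third and the strongest of control library 1, with 14.5% (12.5 to 16.8) and 20.0% (17.7 to 22.4).

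**Figure D2:**
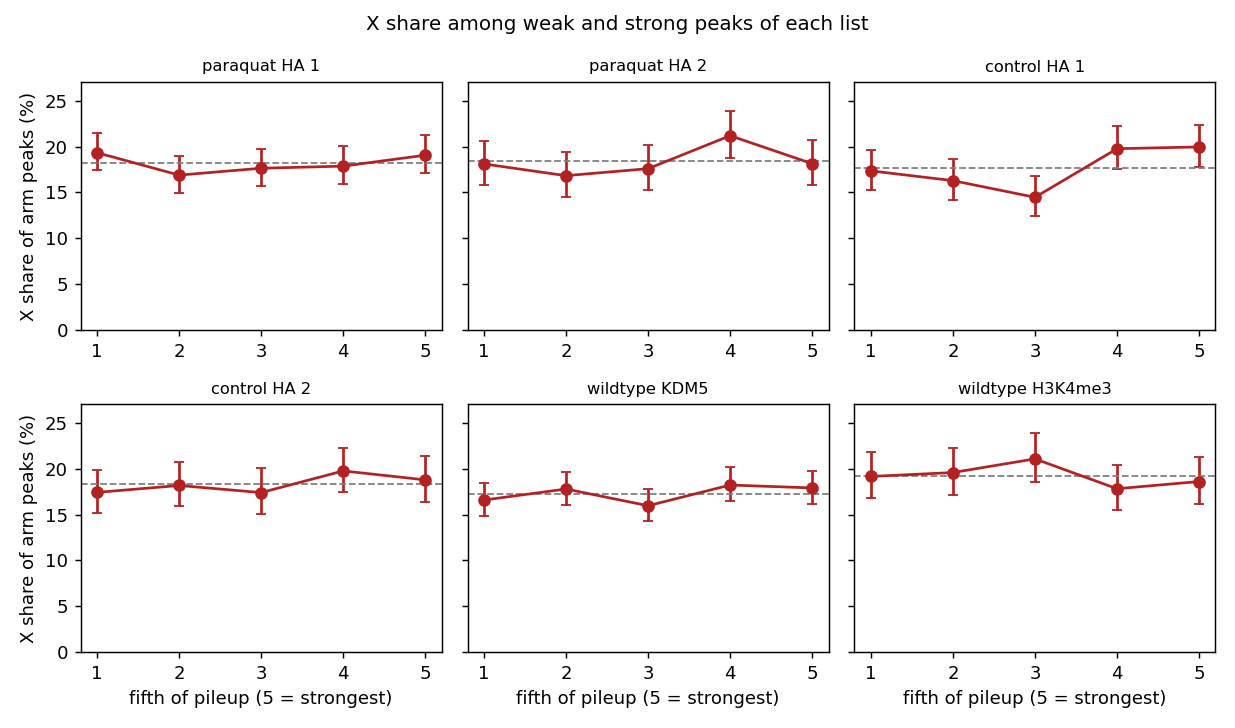
Percentage of arm peaks that lie on X (vertical axis) in 5 classes of pileup from weakest to strongest (horizontal axis), one panel for each list, with 95% Wilson intervals as bars and the X share of the whole list as a dashed line. The points lie between 14.5% and 21.2% and follow no steady trend with strength.

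Among the strongest 10% of arm peaks X had 19.1% and 17.6% in the paraquat libraries, and 20.9% and 16.9% in the control libraries. Among the strongest 1% of arm peaks X had 11 of 72 and 5 of 49 in the paraquat libraries, which is 15.3% (8.75 to 25.3) and 10.2% (4.44 to 21.8). The control libraries had 8 of 54 and 4 of 48 on X, which is 14.8% (7.70 to 26.6) and 8.33% (3.29 to 19.6). All 4 intervals include 18.8%, the X share of span. The wildtype KDM5 list had 16 of 89 (18.0%, 11.4 to 27.2). The H3K4me3 list had 17 of 46 on X (37.0%, 24.5 to 51.4). Of those 17 peaks, 14 lay on a local background of more than 2 times the lowest in the list, against 13 of the 29 autosome peaks in the same class. Without peaks on such a background X had 11 of 44 (25.0%, 14.6 to 39.4), an interval that includes the share of span.

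The strongest KDM5 sites on X are given by position, since no gene annotation of build dm3 was used. The highest-ranked anti-HA region, at X:12489023-12489726, had folds of 9.85 and 8.57 in the paraquat libraries and 7.65 and 8.11 in the control libraries. The region at X:2479604-2480703 had folds of 9.17 and 7.59 in the paraquat libraries and 8.10 and 6.83 in the control libraries. The region at X:8485141-8487012 had folds of 6.33 and 5.68 in the paraquat libraries and 6.75 and 7.56 in the control libraries. In the first of the 3 both paraquat values lay above both control values, and in the third both lay below, so the strongest X sites did not share one order of the conditions. The next regions in rank were X:11463809-11465328 with a mean fold of 4.69 ± 0.87, X:7621710-7622495 with 6.80 ± 0.69 and X:10751433-10752650 with 6.44 ± 0.59 (SD, n = 4). All 6 overlapped at least 1 H3K4me3 peak, with a fold of 3.54 to 5.81, and all 6 overlapped wildtype KDM5 peaks with folds of 8.38 to 10.3. The wildtype KDM5 peaks of highest pileup on X were others. They lay at X:15879892-15880912 with a fold of 10.8, at X:6188376-6190264 with 10.5 and at X:7786685-7789139 with 10.6, and their anti-HA folds averaged 4.49 ± 0.32, 4.23 ± 1.03 and 4.50 ± 0.82 (SD, n = 4). The top of the wildtype list was compressed, with an upper quartile of pileup on X of 300.7 and a maximum of 356.0, so ranks within it separate sites poorly.

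In the anti-HA lists median width and spacing were above the pooled autosome values on X, mostly within the range of the single arms. Median width was 400 and 334.5 bp on X in the paraquat libraries, against 392 and 328 bp on the autosome arms. It was 362 and 321.5 bp on X in the control libraries, against 324.5 and 305 bp on the autosome arms. The difference was 17.1 ± 14.3 bp (SD, n = 4; 4 of 4 positive; exact sign-flip permutation p = 0.13, adjusted p = 0.175). Without control library 1 the difference was 10.3 bp. X lay inside the range of the single arms in both paraquat libraries and above it in both control libraries. Wildtype KDM5 peaks had a median of 859 bp on X, against 838 bp on the autosome arms, and H3K4me3 peaks were narrower on X, 269 bp against 284 bp. Each of these last pairs lay inside the range of the single autosome arms. The widest wildtype KDM5 peak on X, at X:7826054-7832621, ran over 6568 bp with a fold of 10.7. It held 7 H3K4me3 peaks and anti-HA peaks in all 4 libraries, with folds of 5.24 and 4.04 in the paraquat libraries and 4.27 and 4.68 in the control libraries.

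The median distance from one summit to the next was 2041 and 4214 bp on X in the paraquat libraries, against 1913 and 3858 bp on the autosome arms. It was 2979 and 3934 bp on X in the control libraries, against 2666 and 3496 bp on the autosome arms. The difference was 309 ± 131 bp (SD, n = 4; 4 of 4 positive; exact sign-flip permutation p = 0.13, adjusted p = 0.175). With summits closer than 500 bp joined it was 181 bp, positive in 3 of 4 (exact p = 0.375). X spacing lay inside the range of the single autosome arms in 3 of the 4 libraries and above it in control library 1. In the wildtype KDM5 list the spacing was 4512 bp on X, longer than on any autosome arm, the pooled arms having 4175 bp. H3K4me3 summits were 4243 bp apart on X, against 4339 bp. In the anti-HA lists width and spacing nearly cancelled in the covered length. It was 25.3 and 16.1 kb per Mb on X in the paraquat libraries, against 25.4 and 16.2 on the autosome arms. In the control libraries it was 16.3 and 14.9 kb per Mb on X, against 16.7 and 15.1. They did not cancel in the wildtype KDM5 list, which covered 63.3 kb per Mb on X and 68.4 on the autosome arms. The single arms of that list had 62.2 to 78.0 kb per Mb. The longest stretch of X without a wildtype KDM5 summit was 375 kb, between summits at 11966594 and 12341632. It held 0 and 1 anti-HA summits in the paraquat libraries, 1 and 0 in the control libraries, and 1 H3K4me3 summit. The longest such stretches on the autosome arms were 244 to 432 kb.

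Along X, dense and sparse 1 Mb bins lay side by side. By wildtype KDM5 summits the densest of the 22 complete bins were 15 to 16 Mb with 107 summits, 11 to 12 Mb with 97 and 16 to 17 Mb with 94. In the bin at 15 to 16 Mb the paraquat libraries had 100 and 69 summits, the control libraries 72 and 72, and the H3K4me3 library 65. The bins at 11 to 12 and 16 to 17 Mb held 44 and 45 H3K4me3 summits, fewer than the bins at 1 to 2 Mb with 67 and 19 to 20 Mb with 61. The densest bins were thus only in part the same for KDM5 and its substrate, the bin at 15 to 16 Mb being among the densest for both. The sparsest complete bins were 20 to 21 Mb with 33 wildtype KDM5 summits, 12 to 13 Mb with 34 and 3 to 4 Mb with 40. The same bins were the sparsest complete ones for H3K4me3, with 22, 22 and 24 summits. In the bin at 3 to 4 Mb the paraquat libraries had 23 and 15 summits, the control libraries 12 and 13, and the H3K4me3 library 24. The bins at 11 to 12 and 12 to 13 Mb, among the densest and the sparsest, are neighbours. The incomplete last bin, from 22 Mb to the end of the span, had 6 wildtype KDM5 summits.

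The SD over the mean of the 22 bins was 0.378 and 0.399 in the paraquat libraries, 0.406 and 0.410 in the control libraries, 0.319 for wildtype KDM5 and 0.332 for H3K4me3. The H3K4me3 value was the lowest of the 5 arms, the others having 0.342 to 0.521, and the wildtype KDM5 value lay within the 0.288 to 0.463 of the autosome arms. Across the 22 bins, which share gene density, mappability and depth and are given as a description only, Pearson's r between anti-HA libraries was 0.941 to 0.974. Between wildtype KDM5 and H3K4me3 it was 0.783 on X (Spearman's rho 0.819), against 0.889 (0.880) over 95 autosome bins. The bin at 21 to 22 Mb had as many H3K4me3 as wildtype KDM5 summits, 41 of each, the highest H3K4me3 number per KDM5 summit on X. The bin at 10 to 11 Mb had the lowest, 26 for 69.

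**Figure D3:**
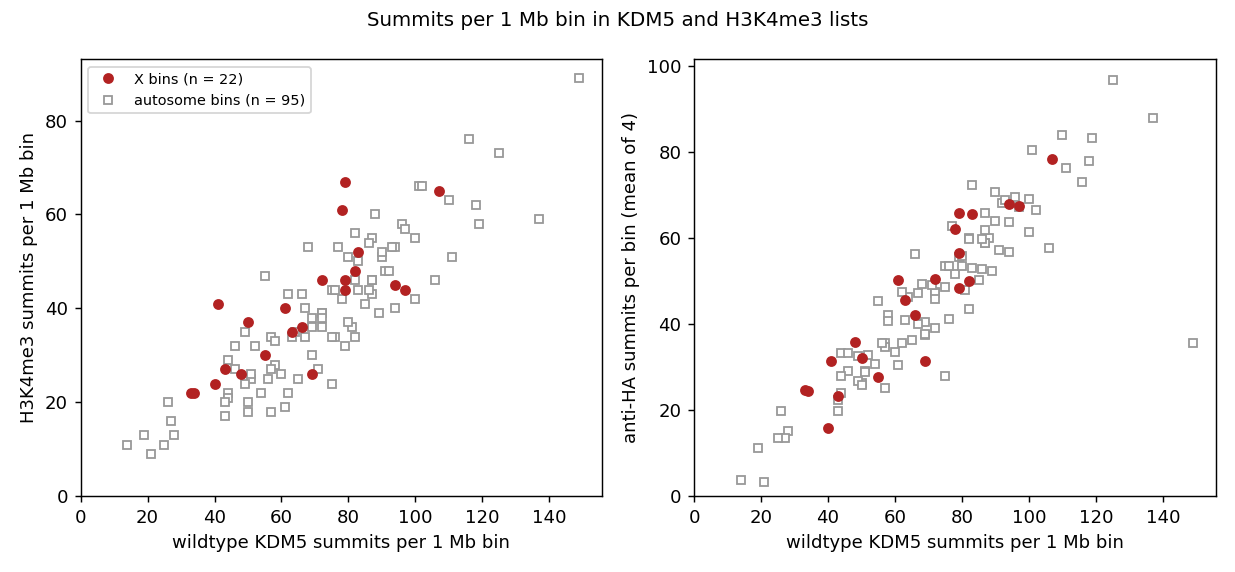
H3K4me3 summits (left, vertical axis) and anti-HA summits as the mean of the 4 libraries (right, vertical axis) against wildtype KDM5 summits (horizontal axes) in 1 Mb bins, with 22 complete X bins as filled circles and 95 autosome bins as open squares. Most X bins lie within the cloud of autosome bins. On the left, the X bins at 41 wildtype KDM5 and 41 H3K4me3 summits, at 79 and 67, and at 78 and 61 stand above it. Each had more H3K4me3 summits than any autosome bin with as many or fewer wildtype KDM5 summits.

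KDM5 peaks on X coincided with H3K4me3 about as often as autosomal ones. For every KDM5 list the H3K4me3 peaks were those of the w1118 library. Of X peaks, 53.8% and 67.0% overlapped an H3K4me3 peak by at least 1 bp in the paraquat libraries, against 51.9% and 66.8% of autosome peaks. In the control libraries 69.6% and 69.8% of X peaks did, against 65.4% and 68.6% of autosome peaks. The difference was 1.88 ± 1.71 percentage points (SD, n = 4; 4 of 4 positive; exact sign-flip permutation p = 0.13, adjusted p = 0.175). Without control library 1 it was 1.09 points, and limited to q-values of 0.001 or lower it was 0.374 points, positive in 3 of 4 (exact p = 0.625). X was above all 4 arms in paraquat library 1 and control library 1, and inside their range in the other pair. In the wildtype KDM5 list 39.9% of X peaks (37.4 to 42.4) overlapped H3K4me3, above the 36.2% to 38.7% of the single arms. That order did not hold when the overlap had to cover at least 50% of both peaks, where X minus pooled autosomes was -0.566 points.

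The overlap followed strength closely, so it was also compared within the 5 classes of pileup. In the wildtype KDM5 list 0.707% of the weakest class on X and 92.7% of the strongest overlapped H3K4me3. The X peaks that overlapped H3K4me3 numbered 676 and 590 in the paraquat libraries, against 656 and 598 if each class had its autosome share. They numbered 673 and 621 in the control libraries, against 652 and 618 at autosome shares, and 582 in the wildtype KDM5 list, against 562. Observed numbers were above in 4 of the 5 lists, by 3.05 to 20.9 peaks. From each KDM5 summit the nearest H3K4me3 summit lay at a median of 240 and 152 bp on X in the paraquat libraries, against 281 and 175 bp on the autosome arms. It lay at 122 and 145 bp on X in the control libraries, against 153 and 155 bp.

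**Figure D4:**
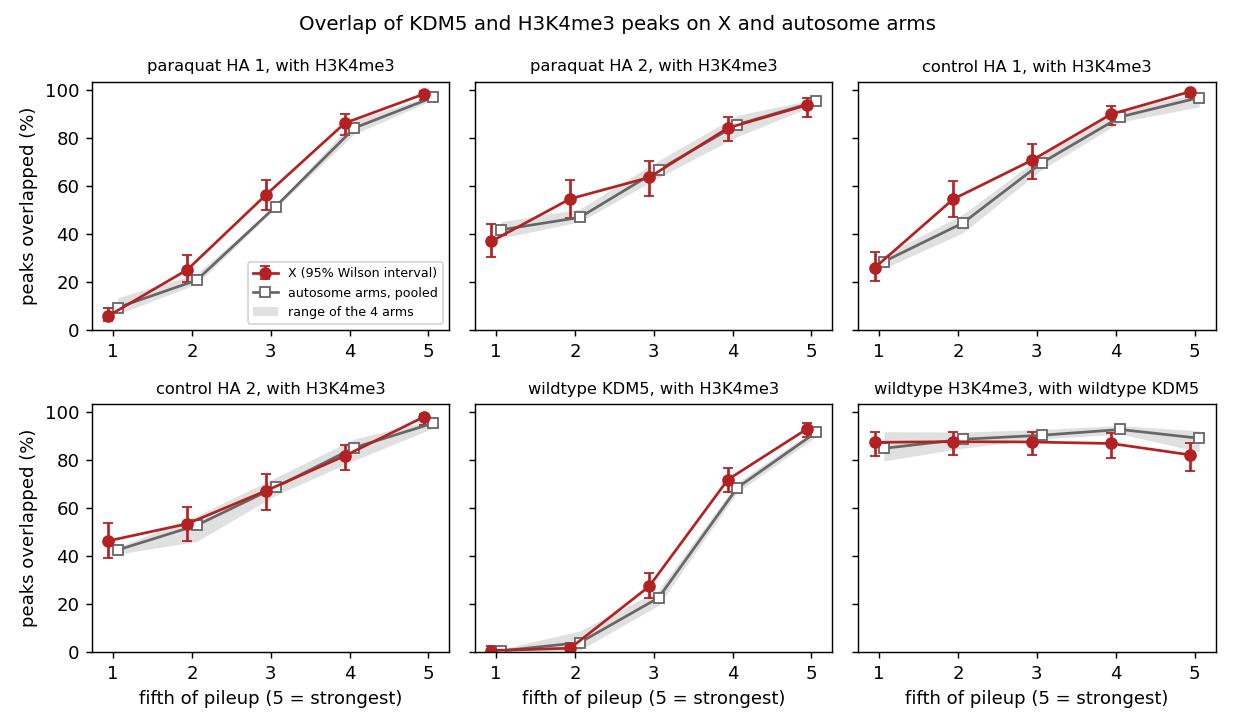
Percentage of peaks that overlap a peak of the other kind by at least 1 bp (vertical axis) in 5 classes of pileup from weakest to strongest (horizontal axis), for X and for the pooled autosome arms in each list; the partner is H3K4me3 for the KDM5 lists and wildtype KDM5 for the H3K4me3 list. Bars are 95% Wilson intervals for X and the band is the range of the 4 autosome arms. The overlap climbs with strength in the KDM5 lists on X and autosomes alike, and in the strongest class of the H3K4me3 list X is at 82.0% and the autosomes are at 88.9%.

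In the other direction, the share of H3K4me3 peaks that met a KDM5 peak was compared. An anti-HA peak of any library met 85.5% of H3K4me3 peaks on X, against 85.3% on the autosome arms and 78.5% to 90.9% on the single ones. Merged anti-HA regions with a peak in all 4 libraries met 72.5% (69.5 to 75.3) on X. They met 73.8% on the autosome arms and 68.1% to 79.3% on the single ones. With wildtype KDM5 the X value was below the autosome value. Of the 887 X peaks 86.2% (83.8 to 88.4) overlapped a wildtype KDM5 peak, against 89.0% (87.9 to 89.9) on the pooled autosome arms. X lay below each single arm (87.0% to 92.3%), but the values of 2L, 2R and 3L lay within the interval for X. Only that of 3R lay above it. In the strongest class of H3K4me3 pileup the X value was 82.0% (75.5 to 87.1), against 88.9% on the autosome arms. With 1 H3K4me3 library there is no test of this difference. Of the 122 X peaks without wildtype KDM5, 108 met no anti-HA peak either. The 122 were narrower than the other X peaks, with a median width of 162.5 bp against 296 bp. Their median fold was lower, 2.14 against 2.59, and their local background higher, 1.32 times the lowest in the list against 1.02 times. Their median pileup was not lower, 41 fragments against 40. On the autosome arms the peaks without wildtype KDM5 were also narrower, lower in fold and on a higher background. Their median pileup there was 39 fragments against 41.

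The difference between X and autosomes in overlap with wildtype KDM5 was smaller without a few X sites of high local background. There were 22 X peaks (2.48%) on a background of more than 2 times the lowest in the H3K4me3 list, against 38 (1.02%) on the autosome arms. Of the 22 on X, 20 had no wildtype KDM5 peak, and of the 38 on the autosome arms, 27 had none. A step added after such peaks were seen left them out on X and on the autosome arms. It was bound to raise the X share, since 20 of the 22 had no wildtype KDM5 peak. After it, 88.2% (85.9 to 90.2) of H3K4me3 peaks on X overlapped wildtype KDM5, against 89.5% on the pooled autosome arms. The single arms had 88.0% to 92.8%. In the strongest class the values were then 93.5% (88.7 to 96.3) on X and 91.5% on the autosome arms. Of the 22, 11 lay together at X:13894733-13955366, a stretch of 60.6 kb that held 13 H3K4me3 peaks, no wildtype KDM5 peak and no anti-HA peak. Their background was 3.19 to 6.65 times the lowest in the list, their pileup 82 to 132 fragments and their fold 1.45 to 2.0. They made up 8 of the 10 highest H3K4me3 pileups on X, and none of those 10 overlapped wildtype KDM5.

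**Figure D5:**
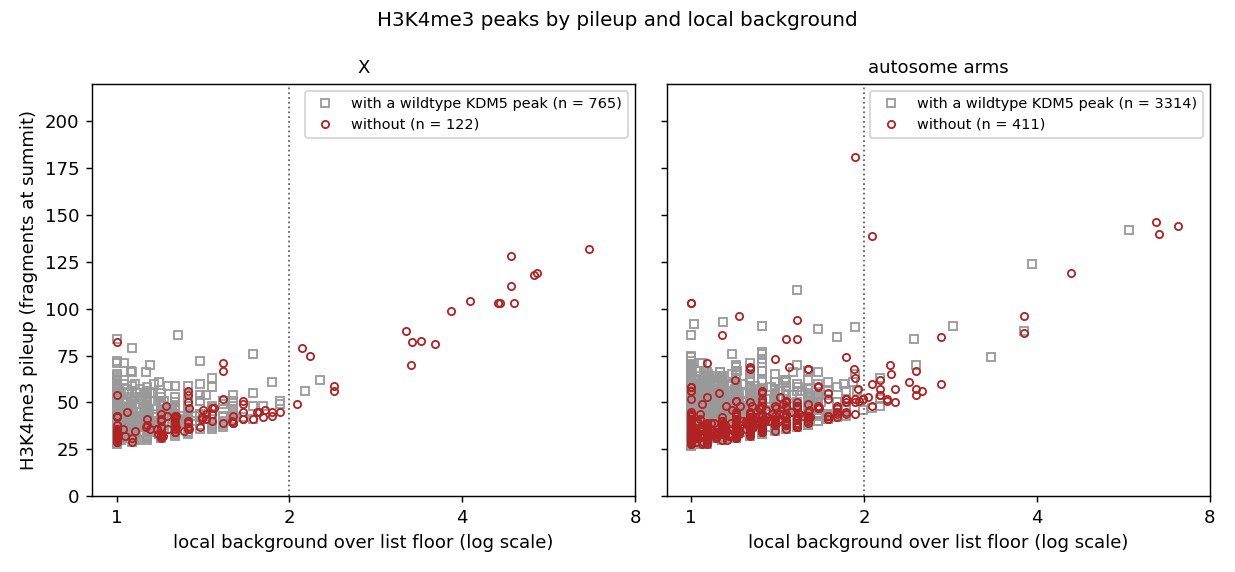
Pileup of each H3K4me3 peak in fragments (vertical axis) against its local background over the lowest in the list (horizontal axis, log scale), for X on the left and the autosome arms on the right, with circles for peaks without a wildtype KDM5 peak, squares for peaks with one, and a dotted line at 2. The 10 X peaks of highest pileup, 99 to 132 fragments, all lie to the right of the line and all are circles.

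The highest H3K4me3 pileup on X, at X:13894733-13894847 in that stretch, reached 132 fragments at a fold of 1.45. The next, at X:21584576-21585055 and X:21404212-21404418, reached 128 and 119 fragments at folds of 1.92 and 1.61, on backgrounds of 4.86 and 5.39 times the lowest. Both coincided with anti-HA peaks in paraquat library 1, with folds of 6.05 and 4.28, and in control library 1, with folds of 5.36 and 5.55. Neither was listed in paraquat library 2, in control library 2 or in wildtype KDM5. By fold in place of pileup, the strongest H3K4me3 site met by the named regions was the one at X:2479604-2480703, with 5.81, which is also the highest fold on X.

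Merging the 4 anti-HA lists gave 1267 regions on X and 5630 on the autosome arms. On X 602 regions, 47.5% (44.8 to 50.3), had a peak in all 4 libraries, against 48.6% on the autosome arms and 44.7% of the 7537 regions of all chromosomes. A further 125 X regions were in 3 libraries, 160 in 2 and 380 in 1. The regions of 4 libraries had a median width of 703.5 bp on X, against 686 bp on the autosome arms. On X 85.9% of them (82.9 to 88.4) overlapped H3K4me3, against 83.3% on the autosome arms, and 601 of the 602 overlapped wildtype KDM5, against 2735 of 2735. The exception, at X:17317653-17317856, had folds of 3.33 and 2.79 in the paraquat libraries and 2.42 and 2.45 in the control libraries, and no H3K4me3 peak. Over all merged regions 93 on X had no wildtype KDM5 peak, 7.34% (6.03 to 8.91), against 311 or 5.52% (4.96 to 6.15) on the autosome arms.

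Most X regions of 4 libraries met a single H3K4me3 peak. Of the 602, 85 met none, 412 met 1 and 105 met several, up to 5. In percent this was 14.1, 68.4 and 17.4 on X, against 16.7, 67.7 and 15.6 on the autosome arms. Width grew with that number on X, with medians of 517 bp for none, 687 bp for 1 and 1218 bp for several, and a wider region has more room to meet a peak. The strongest X region with KDM5 in all 4 libraries and no H3K4me3 peak lay at X:17995075-17995426, with folds of 4.89 and 3.64 in the paraquat libraries and 3.70 and 5.25 in the control libraries. The others named by rank were X:9672605-9673236, X:12797119-12797635 and X:9176496-9177287, with mean folds of 3.88 ± 0.21, 3.90 ± 1.09 and 4.08 ± 0.54 (SD, n = 4). All 4 overlapped a wildtype KDM5 peak.

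Paraquat, a redox-cycling herbicide used to impose oxidative stress, was compared with sucrose alone to see whether KDM5 was redistributed over X. The rank of X peaks differed between conditions by less than the SD of the libraries within either condition. The X share of peaks differed by more than the SD of the paraquat libraries and less than that of the control libraries. The X share of arm peaks averaged 18.3% ± 0.15 in paraquat libraries and 18.0% ± 0.48 in control libraries (SD, n = 2 each), a difference of 0.306 percentage points with an exact two-sided permutation p of 0.667. The median pileup percentile of X peaks averaged 52.2 ± 2.0 in paraquat libraries and 53.6 ± 2.2 in control libraries (SD, n = 2 each), a difference of -1.49 with an exact permutation p of 0.667. Without control library 1 the differences were -0.035 points in share and 0.089 in percentile, so both directions rest on that library. The smallest p that 2 libraries against 2 allow is 0.333, and after adjustment over the 12 measures compared on X all were 1. Of the 12 measures, the overlap with H3K4me3 and the longest gap between summits had groups that did not overlap. As given above, 53.8% and 67.0% of X peaks overlapped H3K4me3 in the paraquat libraries, against 69.6% and 69.8% in the control libraries (exact permutation p = 0.333). The H3K4me3 peaks are those of w1118 flies with no feeding recorded, so the mark under paraquat was not measured. Paraquat library 1, the lowest of the 4, also had the longest anti-HA list, and the part of list length in this difference was not tested. On the autosome arms the paraquat values of 51.9% and 66.8% overlapped the control values of 65.4% and 68.6%. The mean paraquat minus control difference was nonetheless of the same sign, -9.27 points on X and -7.59 points on the autosome arms. The longest gap on X was 492 and 715 kb in the paraquat libraries, against 747 and 747 kb in the control libraries (exact permutation p = 0.333). On the autosome arms the order was the opposite, 1129 and 689 kb in the paraquat libraries against 646 and 646 kb in the control libraries (exact permutation p = 0.333).

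Few X regions were listed in one condition alone. Regions with a peak in both paraquat libraries and in neither control library numbered 30 on X, 2.37% (1.66 to 3.36) of X regions, against 1.92% on the autosome arms and 1.91% of the regions of all chromosomes. The reverse pattern, both control libraries and neither paraquat library, was found in 3 X regions, 0.237% (0.081 to 0.694), against 0.107% (0.049 to 0.232) on the autosome arms and 0.133% on all chromosomes. The intervals for X and the autosomes overlap, and the difference was not tested. Single libraries differed far more. Of the 1267 X regions, 295 were in paraquat library 1 alone and 35 in paraquat library 2 alone, against 27 in control library 1 alone and 23 in control library 2 alone. Of the 5630 autosome regions, 1317 and 154 were in the paraquat libraries 1 and 2 alone, and 181 and 73 in the control libraries 1 and 2 alone. The high count for paraquat library 1 was therefore not particular to X. That library had the longest anti-HA list, and the part of list length in these counts was not tested.

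The strongest of the 30 regions, X:7184934-7185326, had folds of 2.95 and 2.82 in the paraquat libraries, and X:3614126-3614528 had 2.85 and 3.65. The next, X:5836662-5837264 and X:6555648-6556006, had mean folds of 2.80 ± 0.21 and 2.19 ± 0.49 (SD, n = 2). All 4 lay in wildtype KDM5 peaks of w1118 flies with folds of 6.34 to 9.24, and 3 of the 4 overlapped H3K4me3. The 3 regions of the reverse pattern, X:173406-173578, X:3467423-3467564 and X:5217945-5218171, had mean folds of 2.55 ± 0.18, 2.47 ± 0.03 and 2.18 ± 0.05 in the control libraries (SD, n = 2). They also lay in wildtype KDM5 peaks, with folds of 4.22 to 6.94, and none overlapped H3K4me3. The 3 control regions ranked at mean percentiles of 8.10 to 15.5 of their lists, and the 4 paraquat regions at 38.9 to 49.0. The 4 paraquat regions were picked as the highest of the 30 by this same percentile, while the 3 control regions were all of their kind. The ranges therefore cannot be compared.

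In the 602 X regions of all 4 libraries the median percentile was 75.8 and 65.3 in the paraquat libraries, against 69.6 and 65.2 in the control libraries. The median difference between conditions per region was 2.50 percentile points on X (quartiles -2.63 and 11.1), against 3.28 on the autosome arms. It was 5.48 on X between libraries numbered 1 and 0.411 between libraries numbered 2. Percentiles are ranks within a list, paraquat library 1 has the longest list, and a region shared by all libraries ranks higher in a longer list, so list length and treatment cannot be told apart in these values. Both paraquat values lay above both control values in 113 X regions (18.8%), against 18.3% on the autosome arms and 18.4% over the 5 arms. Both lay below in 37 X regions (6.15%), against 5.01% on the autosome arms and 5.21% over the 5 arms. The X percentages were those of the arms as a whole to within 1 percentage point.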

How the data were processed

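Peak lists of 6 ChIP-seq libraries were used. The submitters' processing notes name CASAVA 1.4, Bowtie, MACS2 and build dm3. Their settings, and the input behind each list, are not given in the sources used. Each library had its own list. The deposited values are the authors' pileup signal at the summit, the -log10 of the p-value and of the q-value, and the fold enrichment ratio over local background. The weakest deposited q-values were 0.0421 to 0.0498. No list gives read totals, so depth is unknown and the weakest detectable peak may differ between lists.

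From these, percentiles of pileup were ranked within each list over the 5 arms, with ties averaged. Spans ran from the first to the last peak of any list, and bins held summits. Local background was recovered as (pileup + 1)/fold minus 1 and divided by its lowest value in the list. The anti-HA lists were merged where they overlapped, which gave the 6897 arm regions that bedtools 2.31.1 also gave. Overlap meant at least 1 bp. Scripts used Python 3.11.15, numpy 2.4.6, pandas 2.3.3, scipy 1.17.1 and matplotlib 3.10.9, and were tested on simulated data. Positions count from 1.

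X was compared with autosomes by an exact sign-flip test over the 4 anti-HA libraries, and paraquat with control by an exact permutation test. Peaks are not replicates; Wilson and Poisson intervals cover counting error only. The labels do not say that libraries 1 and 2 came from separate flies, so p-values measure only the spread between these libraries. Regions were named by a rule: the 6 highest anti-HA regions by mean percentile, the 3 wildtype KDM5 and H3K4me3 peaks of highest pileup, the widest KDM5 peak, the 3 densest and sparsest bins, the longest KDM5 gap, and the 4 highest regions of each condition and without H3K4me3. The X region without wildtype KDM5 and the stretch of high background were chosen after their values were seen. The members and lists were chosen with earlier results of these data known. Chromosome 4, heterochromatic and unplaced scaffolds, sequences and gene names were not used here.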

Additional observations from a re-analysis of the deposited data

Results flagged for a closer look

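XHet, the scaffold of X-linked heterochromatin in build dm3, lies outside the X span compared above. It held 9 and 7 peaks in the paraquat libraries 1 and 2, 6 and 8 in the control libraries 1 and 2, 5 in the wildtype KDM5 list and 7 in the H3K4me3 list. They are given because they lie outside the arms compared; there is no control list to set them against.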

How the results depend on the processing

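Of 206 values recomputed for 32 results, 192 moved by less than their spread or, where tested, kept their direction. The value changed direction in 6, and in 3 of these by less than its spread: the H3K4me3 spacing difference was 87.5 bp without high-background peaks, and at q-values of 0.001 or lower the H3K4me3 strongest minus weakest class was 0.280 points and its density ratio 0.998. By bin size, the SD over the mean on X was 0.550 for anti-HA, 0.409 for wildtype KDM5 and 0.462 for H3K4me3 at 0.5 Mb, and 0.232, 0.194 and 0.179 at 2 Mb, since larger bins average more summits. With autosome arms weighted equally the X share was 19.2% in anti-HA lists and 18.3% in wildtype KDM5. This share is X peaks per Mb over the summed peaks per Mb of the 5 arms. It therefore cannot be set against the 18.8% of span. The X to autosome density ratio in this setting was 0.953 in anti-HA lists and 0.896 in wildtype KDM5. The local background difference in anti-HA lists was -0.00045. Ranked by fold, H3K4me3 peaks on X were 2.96 percentile points lower than autosomal ones (-2.96). The X excess of wildtype KDM5 peaks with H3K4me3 was 5.20 points at equal list lengths and -0.566 with 50% overlap of both intervals; the cause was not tested. In anti-HA lists that excess was 3.14 points at equal list lengths and 3.17 with summits within 250 bp, and positive in 3 of 4 libraries with 50% overlap. The percentile difference was positive in 3 of 4 libraries at q-values of 0.001 or lower, without arm ends and by fold.

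Leaving out each anti-HA library in turn gave X minus autosome differences of 0 in background, 10.3 to 20.7 bp in width, 2.50 to 3.70 in percentile, 266 to 369 bp in spacing, 1.09 to 2.43 points in overlap with H3K4me3 and 0.375 to 1.33 points between strongest and weakest class. The X share was 18.1% to 18.3% and the density ratio 0.949 to 0.965. Paraquat minus control spanned -3.07 to 0.089 in percentile and -0.035 to 0.647 points in share. Both changed sign without control library 1, to 0.089 and -0.035.

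With the library number as a block, the paired difference was 0.306 points in X share (exact sign-flip permutation p = 0.5, the smallest 2 pairs allow) and -1.49 in percentile (p = 1). Deviations of same-numbered libraries from their condition means correlated at 0.519 over the 602 X regions of 4 libraries; no label says that the numbers mark pairs. H3K4me3 and wildtype KDM5 rest on 1 library each, and unknown depth limits which weak X peaks could be listed.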
